A study of Mus musculus with 12 samples.

Results

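The fibroblast growth factor (FGF) and epidermal growth factor (EGF) families of secreted ligands and receptor tyrosine kinases were followed in whole mouse skin. Members were the protein-coding genes of GENCODE M21 named Fgf with a number, Fgfr1 to Fgfr4 and Fgfrl1, together with the EGF receptor ligands Egf, Tgfa, Areg, Ereg, Btc, Hbegf and Epgn, the neuregulins Nrg1 to Nrg4, and the receptors Egfr, Erbb2 and Erbb4. All 41 of these genes, of 53379 gene IDs in the count tables, had at least 10 counts summed over the 12 libraries. Of the 41, 35 passed the expression filter and were tested, and Fgf3, Fgf4, Fgf8, Fgf16, Fgf17 and Fgf23 did not pass it. Because the filter can admit a gene through the group in which it is high, the 35 are not all members.

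Bulk RNA-seq libraries had been made in 4 groups of 3: Nf1-KO injured, CTRL injured, Nf1-KO uninjured and CTRL uninjured. All mice were 3 months old, on a C57BL/6 & B6D2 background, and carried the Prss56Cre driver with the R26tdTom reporter, the controls included. Nf1-KO mice carried in addition Nf1flox/-, a floxed and a null allele of Nf1, so the deletion of the floxed copy was limited to cells with Prss56Cre history (boundary cap cells, in the title of the study) while the null copy was present in every cell. Injured skin was taken 14 days post-injury. The design sets injured against uninjured skin in each genotype, and Nf1-KO against CTRL skin in each state.

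FGF and EGF family ligands bind receptor tyrosine kinases that dimerise and signal through RAS and the ERK kinases, a pathway that neurofibromin, the product of Nf1, restrains by speeding the hydrolysis of GTP on RAS. In skin, ligands made in the dermis such as FGF7 and FGF10 act on the epithelial splice form of FGFR2 in keratinocytes, FGFR1 is the main FGF receptor of fibroblasts, and EGFR is the main EGF family receptor of keratinocytes. FGF5 and FGF18 are known in mice as regulators of the hair cycle, and amphiregulin (Areg), epiregulin (Ereg), betacellulin (Btc) and heparin-binding EGF (Hbegf) are shed from keratinocyte membranes. Neuregulins bind ERBB3 and ERBB4, and axonal neuregulin 1 drives the growth and myelination of Schwann cells.

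The libraries held 8817013 to 16809687 counts, and levels are given as CPM, the depth-scaled read count after TMM normalisation. Nf1 had 10.6, 8.75 and 15.8 CPM in Nf1-KO injured skin and 16.6, 9.56 and 11.8 CPM in CTRL injured skin. This compared with 8.96, 9.96 and 9.58 CPM in Nf1-KO uninjured skin and 14.3, 11.8 and 9.21 CPM in CTRL uninjured skin. The genotypes overlapped in both states, and whole-gene counts do not resolve the deleted exons. The log2 fold change of Nf1-KO over CTRL was -0.11 ± 0.28 (SE; edgeR adjusted p = 0.989) in injured and -0.31 ± 0.28 (SE; edgeR adjusted p = 0.884) in uninjured skin, neither called. Whole-skin markers were present in every group, with no gene of the keratinocyte, fibroblast, hair follicle or Schwann cell lists at 0 throughout a group. Skin state was confounded with sex markers. Xist stood at 465 to 680 CPM in the 6 injured and at 0.694 to 2.45 CPM in the 6 uninjured libraries, and the Y-linked Ddx3y at 0 to 0.0633 CPM in injured and 69.4 to 91.4 CPM in uninjured libraries. Injury and sex therefore cannot be told apart in any injury comparison below. The summed level of 1728 nose receptor genes (olfactory and vomeronasal), divided by their summed exonic length, was 0.00242 to 0.0599 CPM per kb of exon in injured and 0.0934 to 0.279 in uninjured libraries. It serves below as the background of each library. The share of counts in the ribosomal RNA-like genes Gm42418 and Gm26917 was 0.617% to 1.52% in injured and 0.274% to 0.674% in uninjured libraries.

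A gene was called when the Benjamini-Hochberg adjusted p of edgeR's quasi-likelihood F test over 23635 genes was under 0.05. In Nf1-KO skin, injury was accompanied by 9 higher and 8 lower members of 35, or 48.6%, beside 37.4% of all genes tested (19.1% higher and 18.4% lower). In CTRL skin 7 members were higher and 11 lower, or 51.4%, beside 55.3% of all genes (22.8% higher and 32.5% lower). The share called in CTRL skin was thus near that of all genes. The median log2 fold change of the members was -0.09 in Nf1-KO and -0.16 in CTRL skin, and the median of all genes was -0.09 in Nf1-KO and -0.21 in CTRL skin. The calls named 7 members higher in both genotypes (Fgfr1, Fgfrl1, Fgf5, Fgf10, Fgf22, Areg and Hbegf) and 7 lower in both (Fgfr2, Fgfr3, Erbb2, Erbb4, Ereg, Btc and Nrg3). Fgf2 and Fgf7 were called higher and Fgf18 lower in Nf1-KO skin alone, Fgf9, Fgf12, Fgf15 and Egf were called lower in CTRL skin alone, and 14 members were called in neither. No member was called in opposite directions. How many of all genes showed each joint pattern was not counted, so these patterns are not read as a trait of the family. The labels do not say that the libraries of a group came from separate mice, so the p-values measure the spread between these libraries, which may be technical. In bulk skin, fewer cells of a type and less RNA per cell cannot be told apart.

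**Figure D1:**
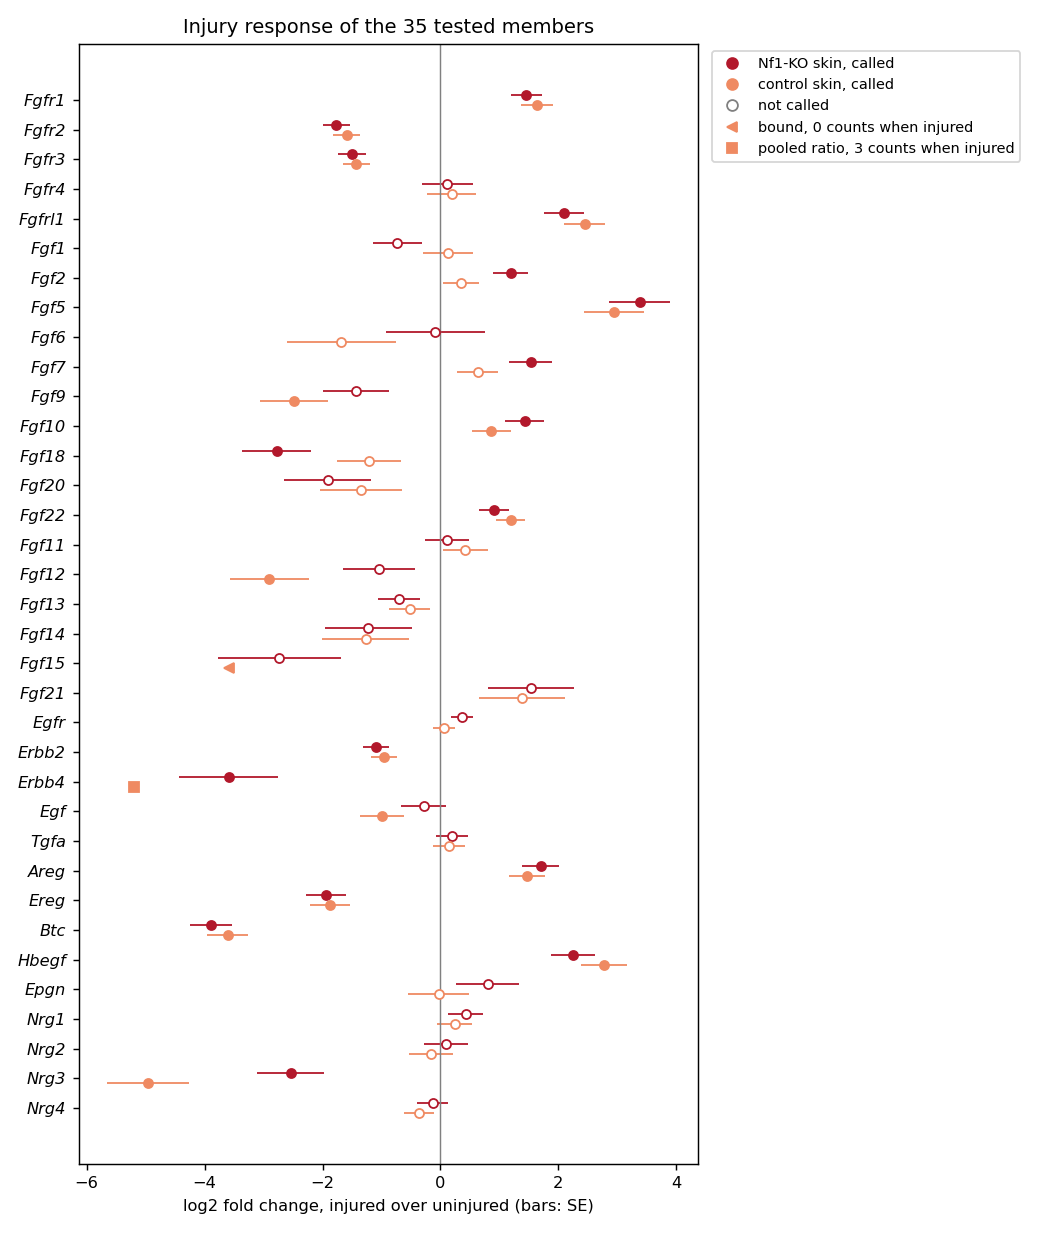
Log2 fold change of injured over uninjured skin for the 35 tested members, with SE bars, in Nf1-KO (dark red) and CTRL skin (orange), where filled points are called at adjusted p under 0.05. The arrow for Fgf15 is a bound against 0 counts and the square for Erbb4 a ratio of pooled counts. The 14 members called higher or lower in both genotypes lie on the same side of 0 in both.

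The FGF receptors divided into 2 that rose with injury and 2 that fell. Fgfr1, at chr8:25513654-25575718 of GRCm38 on the plus strand, had 98.3, 76.7 and 147 CPM in Nf1-KO injured skin and 86.9, 110 and 97 CPM in CTRL injured skin. This compared with 35.4, 27.7 and 54.3 CPM in Nf1-KO uninjured skin and 26.4, 29.3 and 38.2 CPM in CTRL uninjured skin. Every injured library was above every uninjured library. Fgfr1 rose in both genotypes, with a log2 fold change of 1.46 ± 0.27 (SE; edgeR adjusted p = 0.000606) in Nf1-KO skin and 1.64 ± 0.27 (SE; edgeR adjusted p = 0.000201) in CTRL skin. Fgfrl1, a receptor of the family that lacks the tyrosine kinase domain, had 22.1, 15.8 and 28.4 CPM in Nf1-KO injured skin and 15.6, 28.7 and 21.8 CPM in CTRL injured skin, against 3.67, 3.98 and 7.77 CPM in Nf1-KO uninjured skin and 5.45, 3.22 and 3.47 CPM in CTRL uninjured skin. The injured and uninjured libraries did not overlap. Fgfrl1 rose with a log2 fold change of 2.10 ± 0.34 (SE; edgeR adjusted p = 0.000217) in Nf1-KO and 2.45 ± 0.35 (SE; edgeR adjusted p = 6.61e-05) in CTRL skin.

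Fgfr2 and Fgfr3, the receptors with the highest level per kb of the family in uninjured skin, fell. Fgfr2 had 56.1, 90.3 and 58.4 CPM in Nf1-KO injured skin and 60.5, 94.3 and 83.2 CPM in CTRL injured skin. This compared with 231, 272 and 195 CPM in Nf1-KO uninjured skin and 223, 237 and 256 CPM in CTRL uninjured skin. All 6 injured libraries were at or under 94.3 CPM and all 6 uninjured libraries at or above 195 CPM. The fall had a log2 fold change of -1.77 ± 0.23 (SE; edgeR adjusted p = 3.04e-05) in Nf1-KO and -1.59 ± 0.23 (SE; edgeR adjusted p = 7.87e-05) in CTRL skin. Fgfr3 had 68.5, 113 and 59.6 CPM in Nf1-KO injured skin and 79.5, 75.9 and 99.2 CPM in CTRL injured skin. This compared with 232, 242 and 206 CPM in Nf1-KO uninjured skin and 203, 213 and 270 CPM in CTRL uninjured skin. Here too the states did not overlap, and the log2 fold change was -1.50 ± 0.23 (SE; edgeR adjusted p = 0.000156) in Nf1-KO and -1.43 ± 0.23 (SE; edgeR adjusted p = 0.000203) in CTRL skin. Fgfr4 was low, at 2.24 ± 0.713 CPM in Nf1-KO injured, 4.02 ± 1.95 CPM in CTRL injured, 2.06 ± 0.799 CPM in Nf1-KO uninjured and 3.54 ± 0.247 CPM in CTRL uninjured skin (SD, n = 3 each), with log2 fold changes of 0.12 ± 0.44 (SE; edgeR adjusted p = 0.854) in Nf1-KO and 0.19 ± 0.42 (SE; edgeR adjusted p = 0.722) in CTRL skin that did not pass the test.

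**Figure D2:**
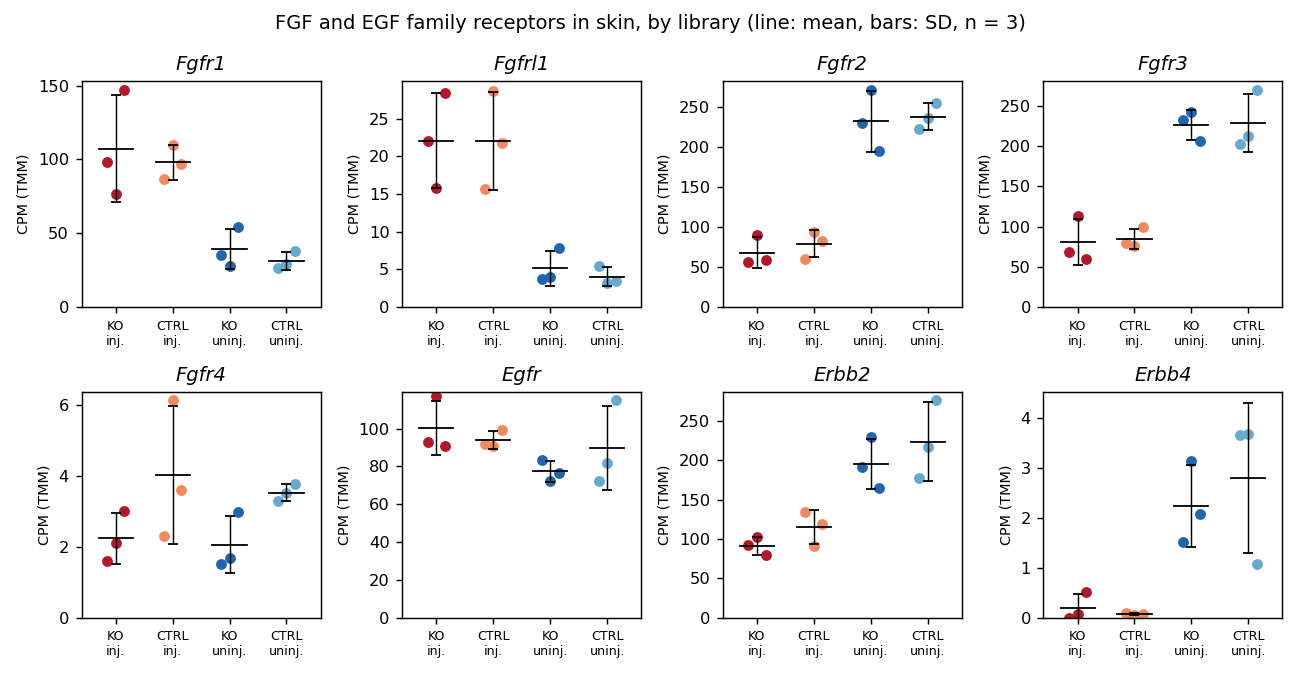
CPM of 8 FGF and EGF family receptors in each of the 12 libraries (points), with the mean (line) and SD (bars) of 3 libraries per group. Fgfr1 and Fgfrl1 stand higher and Fgfr2, Fgfr3, Erbb2 and Erbb4 lower in the injured groups, whereas Egfr lies between 72.5 and 117 CPM throughout.

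Per kb of exon, the make-up of the FGFR1 to FGFR4 transcripts differed between the states. Fgfr1 made up 39.2%, 23.6% and 50.2% of their sum in Nf1-KO injured libraries and 33.3%, 34.1% and 30% in CTRL injured libraries, against 6.09%, 4.42% and 10.2% in Nf1-KO uninjured and 5%, 5.23% and 5.73% in CTRL uninjured libraries. The lowest injured share was thus above the highest uninjured share. Fgfr3 averaged 37.9% ± 9.99 and 39% ± 5.57 of the sum in Nf1-KO and CTRL injured skin, against 54% ± 1.07 and 53.8% ± 1.88 in Nf1-KO and CTRL uninjured skin (SD, n = 3 each). The 2-sided exact permutation p was 0.1 for Fgfr1 and for Fgfr3 in each genotype, the smallest that 3 against 3 libraries can give. Summed over the 4 receptors the level was 25.4 to 32.9 CPM per kb in injured and 53.5 to 67.5 CPM per kb in uninjured libraries.

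Markers of many skin cell types moved with injury, and so with these receptors. All 8 fibroblast markers tested (Col1a1, Col1a2, Col3a1, Pdgfra, Dcn, Lum, Pdgfrb and Fbn1) rose in both genotypes, and their summed level was 9789 to 18405 CPM in Nf1-KO injured and 6015 to 16833 CPM in CTRL injured skin, against 1015 to 2540 CPM in Nf1-KO uninjured and 1607 to 3433 CPM in CTRL uninjured skin. Of 8 basal keratinocyte markers, 7 fell in both genotypes, all but Krt14, with summed levels of 7771 to 10927 and 12819 to 14252 CPM in Nf1-KO and CTRL injured skin, against 19427 to 25485 and 15580 to 21976 CPM in Nf1-KO and CTRL uninjured skin. Differentiating keratinocyte markers fell for 5 of 8 in Nf1-KO skin, and in CTRL skin 4 fell and Flg rose. Their summed levels were 9431 to 10884 and 12974 to 19955 CPM in Nf1-KO and CTRL injured skin, against 21128 to 31178 and 18281 to 24700 CPM in Nf1-KO and CTRL uninjured skin. Markers of other cells also rose, in Nf1-KO and in CTRL skin: 6 and 7 of 7 for adipocytes, 7 and 6 of 7 for macrophages, 6 and 5 of 6 for blood endothelium, 6 and 6 of 6 for melanocytes, and 7 and 6 of 8 for skeletal muscle. The summed level per library ranged from 830 to 1854 CPM in injured and 52.1 to 227 CPM in uninjured skin for adipocytes, and from 327 to 1133 CPM in injured and 89.4 to 156 CPM in uninjured skin for macrophages. It was 157 to 300 CPM in injured and 50.3 to 86.7 CPM in uninjured skin for blood endothelium, and 509 to 1605 CPM in injured and 21.8 to 117 CPM in uninjured skin for melanocytes. For skeletal muscle it was 2145 to 8378 CPM in injured and 105 to 983 CPM in uninjured skin. No marker of these lists was at 0 throughout a group. Their part in the changes of receptors and ligands was not tested.

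Among the 15 paracrine FGF ligands, which act on neighbouring cells, 10 were tested. In Nf1-KO skin 5 rose and 1 fell, or 60%, beside 37.4% of all genes, and in CTRL skin 3 rose and 1 fell, or 40%, beside 55.3% of all genes. Fgf5, whose loss gives mice long hair, had 9.17, 8.96 and 3.01 CPM in Nf1-KO injured skin and 4.53, 7.54 and 5.08 CPM in CTRL injured skin, against 0.448, 0.996 and 0.542 CPM in Nf1-KO uninjured skin and 0.564, 1.15 and 0.505 CPM in CTRL uninjured skin. It was at least 3.01 CPM in all injured libraries and at most 1.15 CPM in all uninjured libraries. The gene (chr5:98254184-98277030 of GRCm38, plus strand) rose with a log2 fold change of 3.38 ± 0.52 (SE; edgeR adjusted p = 0.000138) in Nf1-KO and 2.94 ± 0.51 (SE; edgeR adjusted p = 0.000314) in CTRL skin. Its uninjured level was close to the background of nose receptor genes, at a median ratio of 1.92, so the fold change is against a group near background.

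Fgf22, Fgf10 and Fgf7 belong to the subfamily of ligands for the epithelial form of FGFR2. Fgf22 had 50.6, 69.8 and 38 CPM in Nf1-KO injured skin and 55.7, 46.7 and 62.1 CPM in CTRL injured skin. This compared with 22.8, 21.8 and 39.7 CPM in Nf1-KO uninjured skin and 23.3, 24.2 and 24.5 CPM in CTRL uninjured skin. The CTRL states did not overlap, and in Nf1-KO mice the lowest injured library was just under the highest uninjured one. Fgf22 rose with a log2 fold change of 0.91 ± 0.25 (SE; edgeR adjusted p = 0.00975) in Nf1-KO and 1.19 ± 0.25 (SE; edgeR adjusted p = 0.00111) in CTRL skin. The Nf1-KO call was lost without Nf1-KO uninjured library 1 (0.78, edgeR adjusted p = 0.0501) or library 2 (0.75, adjusted p = 0.0579). Fgf10 had 6.54, 7.05 and 8.35 CPM in Nf1-KO injured skin and 5.24, 3.99 and 4.61 CPM in CTRL injured skin. This compared with 2.78, 1.99 and 3.34 CPM in Nf1-KO uninjured skin and 2.35, 2.07 and 3.16 CPM in CTRL uninjured skin. The states did not overlap in either genotype, and Fgf10 rose with a log2 fold change of 1.43 ± 0.33 (SE; edgeR adjusted p = 0.00325) in Nf1-KO and 0.86 ± 0.33 (SE; edgeR adjusted p = 0.0351) in CTRL skin. The CTRL call was lost without any 1 of 4 libraries, CTRL injured 1 or 3 and CTRL uninjured 1 or 2 (0.74 to 0.91, edgeR adjusted p 0.0512 to 0.128). Fgf7, also called keratinocyte growth factor, had 6.73, 10.6 and 7.83 CPM in Nf1-KO injured skin and 5.51, 5.76 and 10 CPM in CTRL injured skin, against 4.21, 2.61 and 1.9 CPM in Nf1-KO uninjured skin and 5.08, 4.14 and 4.61 CPM in CTRL uninjured skin. It rose in Nf1-KO skin with a log2 fold change of 1.53 ± 0.36 (SE; edgeR adjusted p = 0.00388) and did not pass the test in CTRL skin at 0.63 ± 0.35 (SE; edgeR adjusted p = 0.136), although the CTRL states did not overlap. The interaction, the difference between the 2 injury responses of Fgf7, was 0.90 ± 0.50 (SE; edgeR adjusted p = 0.517) and was not called.

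Fgf2 (basic FGF) had 13.7, 9.59 and 22.1 CPM in Nf1-KO injured skin and 8.44, 12.1 and 12 CPM in CTRL injured skin. This compared with 8.06, 6.36 and 5.42 CPM in Nf1-KO uninjured skin and 8.28, 8.29 and 8.96 CPM in CTRL uninjured skin. The Nf1-KO states did not overlap and the CTRL states did. Fgf2 rose in Nf1-KO skin with a log2 fold change of 1.19 ± 0.30 (SE; edgeR adjusted p = 0.00627), and the value in CTRL skin was 0.35 ± 0.30 (SE; edgeR adjusted p = 0.325). The difference between those responses, 0.84 ± 0.42 (SE; edgeR adjusted p = 0.485), was not called. Exons of Nudt6 on the other strand cover 9.44% of the exonic bases of Fgf2. In all, 15 members share exonic bases with another gene, among them Fgfr3 with G630022F23Rik (13.9%) and Fgf20 with Micu3 (12%), and because the libraries do not mark strand such reads cannot be told apart.

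Fgf18, which in mice holds resting hair follicles in their resting phase, had 0.962, 1.41 and 1.89 CPM in Nf1-KO injured skin and 0.978, 4.88 and 4.21 CPM in CTRL injured skin. This compared with 8.33, 5.13 and 15.7 CPM in Nf1-KO uninjured skin and 8.93, 3.91 and 10.8 CPM in CTRL uninjured skin. It was lower in every Nf1-KO injured than in every Nf1-KO uninjured library, whereas the CTRL states overlapped. Fgf18 fell in Nf1-KO skin with a log2 fold change of -2.78 ± 0.58 (SE; edgeR adjusted p = 0.00197) and did not pass the test in CTRL skin at -1.21 ± 0.54 (SE; edgeR adjusted p = 0.0662). The CTRL value was called without CTRL uninjured library 2 (-1.53, adjusted p = 0.0326) and under 4 other settings listed among the alternatives, and the difference between the responses, -1.57 ± 0.77 (SE; edgeR adjusted p = 0.482), was not called. Fgf9 had 0.449, 1.34 and 2.24 CPM in Nf1-KO injured skin and 0.355, 1.39 and 0.735 CPM in CTRL injured skin, against 3.85, 3.45 and 3.52 CPM in Nf1-KO uninjured skin and 7.24, 4.53 and 2.59 CPM in CTRL uninjured skin. The states did not overlap in either genotype. Fgf9 fell in CTRL skin with a log2 fold change of -2.48 ± 0.58 (SE; edgeR adjusted p = 0.00231) and missed the threshold in Nf1-KO skin at -1.44 ± 0.56 (SE; edgeR adjusted p = 0.0534), where 4 other settings and 5 of the 12 fits without 1 library called it. Those 5 left out Nf1-KO injured 3, CTRL injured 1 or 2, or CTRL uninjured 1 or 3 (-2.01 to -1.40, edgeR adjusted p 0.0158 to 0.0487).

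The growing hair follicle list moved with these ligands. All 11 of its tested markers rose in both genotypes (among them the follicle keratins Krt25, Krt27 and Krt71), with summed levels of 8900 to 29548 and 11062 to 18691 CPM in Nf1-KO and CTRL injured skin, against 33.6 to 106 and 31.8 to 34.8 CPM in Nf1-KO and CTRL uninjured skin. Of 8 dermal papilla markers, 5 rose in both genotypes (Alx4, Crabp1, Hhip, Wif1 and Sox18), with summed levels of 160 to 307 and 160 to 219 CPM in Nf1-KO and CTRL injured skin, against 52.6 to 76.6 and 49.9 to 76.7 CPM in Nf1-KO and CTRL uninjured skin. No marker of these lists was at 0 throughout a group, and their part in the ligand changes was not tested.

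**Figure D3:**
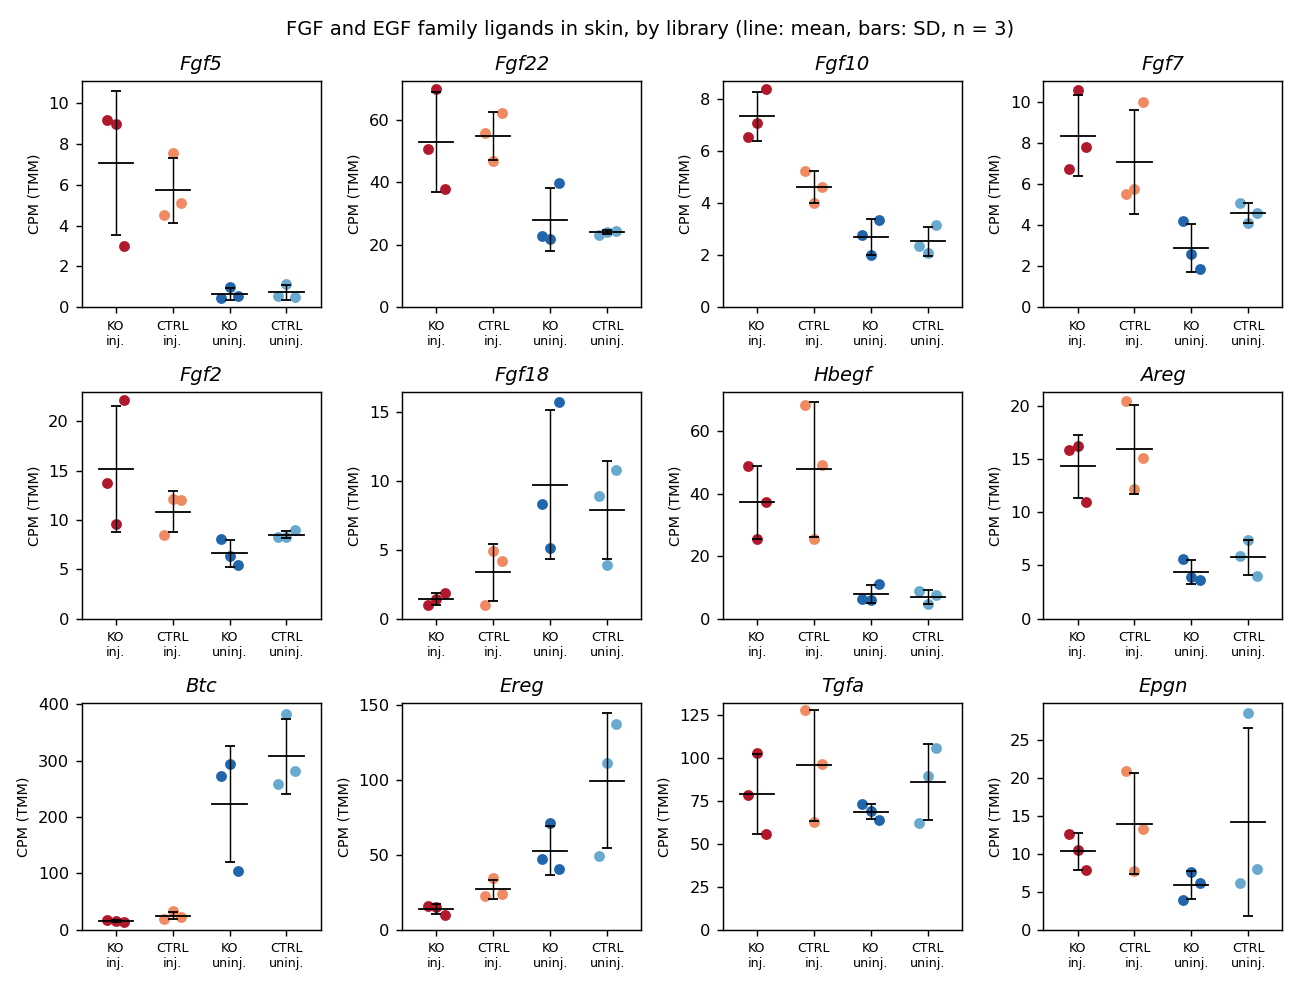
CPM of 12 FGF and EGF family ligands in each of the 12 libraries (points), with the mean (line) and SD (bars) of 3 libraries per group. Fgf5, Hbegf and Areg stand higher and Btc and Ereg lower in all injured than in all uninjured libraries, and Tgfa and Epgn overlap between the states.

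Of the remaining FGFs, Fgf12 and Fgf15 were called, both in CTRL skin. Fgf1 averaged 5.81 ± 2.72 CPM in Nf1-KO injured, 5.95 ± 1.96 CPM in CTRL injured, 9.6 ± 3.91 CPM in Nf1-KO uninjured and 5.41 ± 2.31 CPM in CTRL uninjured skin (SD, n = 3 each), and its log2 fold changes, -0.73 ± 0.42 (SE; edgeR adjusted p = 0.174) in Nf1-KO and 0.13 ± 0.42 (SE; edgeR adjusted p = 0.812) in CTRL skin, did not pass the test. Fgf6 reached at most 1.03 CPM and Fgf20 at most 1.41 CPM in any library, and neither was called. Without 1 library some of these passed: Fgf1 in Nf1-KO skin without Nf1-KO injured library 3 (-1.15, edgeR adjusted p = 0.0413), Fgf6 in CTRL skin without CTRL injured library 2 (-2.93, 0.0438), and Fgf20 without CTRL uninjured library 3 (-1.89 in Nf1-KO skin, 0.026, and -1.68 in CTRL skin, 0.0305). Fgf20 in Nf1-KO skin was also called with DESeq2 (-2.06, DESeq2 adjusted p = 0.0431) and with median-of-ratios scaling (-2.02, edgeR adjusted p = 0.0398). Of the 4 intracellular FGFs, which bind voltage-gated sodium channels instead of receptors, Fgf11 (2.23 to 5.38 CPM), Fgf13 (3.91 to 9.75 CPM) and Fgf14 (0.0889 to 1.84 CPM) were not called. Fgf13 passed in CTRL skin without CTRL injured library 2 (-1.06, edgeR adjusted p = 0.0161), and Fgf14 in Nf1-KO skin without Nf1-KO injured library 3 (-2.08, 0.0462). The remaining member of that group, Fgf12, had 0.513, 0.917 and 0.688 CPM in Nf1-KO injured skin and 0.267, 0.317 and 0.2 CPM in CTRL injured skin. This compared with 1.61, 1.84 and 0.903 CPM in Nf1-KO uninjured skin and 2.63, 2.76 and 0.694 CPM in CTRL uninjured skin. It fell in CTRL skin with a log2 fold change of -2.90 ± 0.67 (SE; edgeR adjusted p = 0.00203), and the value in Nf1-KO skin was -1.04 ± 0.61 (SE; edgeR adjusted p = 0.185), where the states overlapped. The difference between the injury responses was 1.86 ± 0.90 (SE; edgeR adjusted p = 0.471) for Fgf12 and 1.03 ± 0.80 (SE; edgeR adjusted p = 0.642) for Fgf9, and neither was called.

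Of the endocrine FGFs, Fgf15, the mouse counterpart of human FGF19, had 0 counts in the 3 CTRL injured libraries, against 7, 24 and 3 counts in the CTRL uninjured ones, 34 in all. Set against a floor of 3 counts over the injured group, and with the 34 uninjured counts taken as exact, it was at least 12.1-fold lower in CTRL injured skin (edgeR adjusted p = 0.00287). Of those 34 counts, 24 came from CTRL uninjured library 2, so the fold rests largely on 1 library. Fgf15 passed the expression filter through its uninjured libraries, which favours a fall. In Nf1-KO skin it had 0, 3 and 2 counts in injured and 11, 13 and 7 counts in uninjured libraries, and missed the threshold (edgeR adjusted p = 0.0525), which it passed without CTRL injured library 2 (-2.69, edgeR adjusted p = 0.0493) or CTRL uninjured library 3 (-2.73, 0.0278). It also passed there with DESeq2 (-2.94, DESeq2 adjusted p = 0.0364), median-of-ratios scaling (-2.85, edgeR adjusted p = 0.0414) and no filter (-2.69, edgeR adjusted p = 0.0314). Exons of Gm26793 on the other strand cover 24.9% of its exonic bases. Fgf21, a metabolic hormone, ranged from 0.0631 to 1.48 CPM, and its log2 fold changes were 1.54 ± 0.73 (SE; edgeR adjusted p = 0.104) in Nf1-KO and 1.38 ± 0.73 (SE; edgeR adjusted p = 0.116) in CTRL skin, of which the CTRL value passed the test without CTRL uninjured library 1 (2.16, edgeR adjusted p = 0.045). Of the 6 members that were not tested, Fgf3, Fgf4, Fgf8, Fgf16, Fgf17 and Fgf23, none passed 1.27 CPM in any library.

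Of the EGF family receptors, Egfr was not called and Erbb2 and Erbb4 fell in both genotypes, Erbb4 from a level near background. Egfr averaged 100 ± 14.2 CPM in Nf1-KO injured, 93.8 ± 4.65 CPM in CTRL injured, 77.5 ± 5.52 CPM in Nf1-KO uninjured and 89.9 ± 22.4 CPM in CTRL uninjured skin (SD, n = 3 each), with log2 fold changes of 0.37 ± 0.19 (SE; edgeR adjusted p = 0.135) in Nf1-KO and 0.06 ± 0.19 (SE; edgeR adjusted p = 0.804) in CTRL skin that did not pass the test. Erbb2, which has no ligand of its own and pairs with the other receptors, had 91.7, 102 and 79.6 CPM in Nf1-KO injured skin and 134, 91.6 and 119 CPM in CTRL injured skin. This compared with 191, 229 and 165 CPM in Nf1-KO uninjured skin and 177, 217 and 277 CPM in CTRL uninjured skin. The injured libraries lay at or under 134 CPM and the uninjured ones at or above 165 CPM. Erbb2 fell with a log2 fold change of -1.10 ± 0.22 (SE; edgeR adjusted p = 0.00114) in Nf1-KO and -0.96 ± 0.22 (SE; edgeR adjusted p = 0.00178) in CTRL skin. Its partner Erbb3, a neuregulin receptor outside the member rule, also fell, with -0.86 ± 0.19 (SE; edgeR adjusted p = 0.00213) in Nf1-KO and -1.07 ± 0.19 (SE; edgeR adjusted p = 0.000322) in CTRL skin. Egfr made up 22.7% ± 1.07 and 18.9% ± 2.03 of the summed CPM per kb of these receptors in Nf1-KO and CTRL injured skin, against 10.3% ± 1.8 and 9.86% ± 0.48 in Nf1-KO and CTRL uninjured skin (SD, n = 3 each; 2-sided exact permutation p = 0.1 in each genotype, the smallest possible). The same test gave 0.1 in Nf1-KO and 0.2 in CTRL skin for the share of Erbb2, and 0.4 and 0.1 for that of Erbb3. Their sum with Egfr and Erbb4 was 36.2 to 48.3 CPM per kb in injured and 58 to 98.1 CPM per kb in uninjured libraries.

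Erbb4, a neuregulin receptor, had 0, 0.0705 and 0.516 CPM in Nf1-KO injured skin and 0.0889, 0.0633 and 0.0668 CPM in CTRL injured skin, against 1.52, 3.14 and 2.08 CPM in Nf1-KO uninjured skin and 3.67, 3.68 and 1.07 CPM in CTRL uninjured skin. All injured libraries were at or under 0.516 CPM. It fell in Nf1-KO skin with a log2 fold change of -3.59 ± 0.84 (SE; edgeR adjusted p = 0.00395), and in CTRL skin the pooled counts of 3 in injured and 104 in uninjured libraries gave a 36.9-fold lower level (95% exact counting interval 12.3 to 182; edgeR adjusted p = 0.000483). In uninjured libraries its level per kb was 0.93 to 1.42 times the nose receptor background. That background was lower in injured libraries, and its part in the fall of Erbb4 was not tested. Erbb4 passed the expression filter through its uninjured libraries, which favours a fall.

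The ligands of EGFR changed in opposite directions. Betacellulin (Btc) had 16.6, 15.4 and 13.2 CPM in Nf1-KO injured skin and 19.6, 32.8 and 23.1 CPM in CTRL injured skin. This compared with 272, 293 and 104 CPM in Nf1-KO uninjured skin and 258, 383 and 281 CPM in CTRL uninjured skin. No injured library exceeded 32.8 CPM and no uninjured library was under 104 CPM. Btc fell with a log2 fold change of -3.89 ± 0.35 (SE; edgeR adjusted p = 1.43e-06) in Nf1-KO skin and -3.61 ± 0.35 (SE; edgeR adjusted p = 3.5e-06) in CTRL skin, a fall of 14.8-fold in Nf1-KO and 12.2-fold in CTRL skin. Epiregulin (Ereg) had 16, 15.3 and 9.9 CPM in Nf1-KO injured skin and 22.4, 34.2 and 24.1 CPM in CTRL injured skin. This compared with 46.9, 71 and 40.3 CPM in Nf1-KO uninjured skin and 49.4, 111 and 137 CPM in CTRL uninjured skin. The states did not overlap in either genotype, and Ereg fell with a log2 fold change of -1.94 ± 0.34 (SE; edgeR adjusted p = 0.00066) in Nf1-KO and -1.88 ± 0.34 (SE; edgeR adjusted p = 0.000539) in CTRL skin.

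Heparin-binding EGF (Hbegf), a ligand of EGFR and ERBB4 that keratinocytes release in wounds, had 49, 25.5 and 37.2 CPM in Nf1-KO injured skin and 68.5, 25.6 and 49.2 CPM in CTRL injured skin, against 6.27, 5.98 and 11.2 CPM in Nf1-KO uninjured skin and 8.93, 4.53 and 7.45 CPM in CTRL uninjured skin. It was at least 25.5 CPM in all injured libraries and at most 11.2 CPM in all uninjured ones. Hbegf rose with a log2 fold change of 2.25 ± 0.38 (SE; edgeR adjusted p = 0.000491) in Nf1-KO and 2.78 ± 0.39 (SE; edgeR adjusted p = 0.000104) in CTRL skin. Amphiregulin (Areg) had 15.8, 16.2 and 10.9 CPM in Nf1-KO injured skin and 20.4, 12.2 and 15.1 CPM in CTRL injured skin. This compared with 5.64, 3.91 and 3.61 CPM in Nf1-KO uninjured skin and 5.83, 7.37 and 4.04 CPM in CTRL uninjured skin. Again the states did not overlap, and Areg rose with a log2 fold change of 1.70 ± 0.31 (SE; edgeR adjusted p = 0.000525) in Nf1-KO and 1.47 ± 0.30 (SE; edgeR adjusted p = 0.000956) in CTRL skin.

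Egf itself was low, with 2.5, 2.61 and 4.73 CPM in Nf1-KO injured skin and 3.64, 2.79 and 1.87 CPM in CTRL injured skin. This compared with 3.4, 4.44 and 4.07 CPM in Nf1-KO uninjured skin and 6.68, 5.91 and 3.91 CPM in CTRL uninjured skin. It fell in CTRL skin with a log2 fold change of -0.99 ± 0.38 (SE; edgeR adjusted p = 0.0352), and the value in Nf1-KO skin was -0.28 ± 0.38 (SE; edgeR adjusted p = 0.57). The difference between the responses of Egf, 0.71 ± 0.53 (SE; edgeR adjusted p = 0.633), was not called. The CTRL call was lost with 5 of the 12 libraries left out in turn (-0.95 to -0.72, edgeR adjusted p 0.0504 to 0.166): CTRL injured 2 and 3, CTRL uninjured 1 and 2, and Nf1-KO uninjured 1. Transforming growth factor alpha (Tgfa) averaged 79.1 ± 23.6 CPM in Nf1-KO injured, 95.9 ± 32.8 CPM in CTRL injured, 68.9 ± 4.6 CPM in Nf1-KO uninjured and 86.1 ± 22 CPM in CTRL uninjured skin (SD, n = 3 each), and epigen (Epgn) 10.3 ± 2.4 CPM in Nf1-KO injured, 14 ± 6.6 CPM in CTRL injured, 5.92 ± 1.87 CPM in Nf1-KO uninjured and 14.2 ± 12.4 CPM in CTRL uninjured skin (SD, n = 3 each). Neither passed the test, with log2 fold changes for Tgfa of 0.20 ± 0.27 (SE; edgeR adjusted p = 0.572) in Nf1-KO and 0.15 ± 0.27 (SE; edgeR adjusted p = 0.647) in CTRL skin, and for Epgn of 0.80 ± 0.53 (SE; edgeR adjusted p = 0.248) in Nf1-KO and -0.03 ± 0.52 (SE; edgeR adjusted p = 0.964) in CTRL skin. With no filter Epgn was called higher in injured Nf1-KO skin (0.88, edgeR adjusted p = 0.0262).

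The make-up of the 7 EGFR ligands differed between the states. Btc made up 7.35%, 7.15% and 8.24% of their summed CPM per kb in Nf1-KO injured and 5.97%, 16.1% and 9.12% in CTRL injured libraries, against 66%, 63.6% and 44.5% in Nf1-KO uninjured and 63.9%, 57% and 51.3% in CTRL uninjured libraries. It was the largest share in all 6 uninjured libraries and in none of the injured ones. Areg averaged 26.4% ± 1.31 and 22.6% ± 0.585 in Nf1-KO and CTRL injured skin, against 4.67% ± 1.35 and 4.06% ± 1.32 in Nf1-KO and CTRL uninjured skin (SD, n = 3 each). Tgfa, whose own level passed no test, averaged 27.3% ± 5.25 and 25.1% ± 3.19 in Nf1-KO and CTRL injured skin, against 14% ± 4.52 and 11.2% ± 2.12 in Nf1-KO and CTRL uninjured skin. For each of these shares the 2-sided exact permutation p was 0.1 in each genotype, the smallest that 3 against 3 can give. The same test gave 0.1 in Nf1-KO and 0.3 in CTRL skin for Ereg, 0.1 and 0.2 for Epgn, and 0.5 in Nf1-KO skin for Egf. Summed over the 7 ligands the level was 35.4 to 72.4 CPM per kb in injured and 51.6 to 149 CPM per kb in uninjured libraries. A share can thus rise without a rise of the ligand itself.

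**Figure D4:**
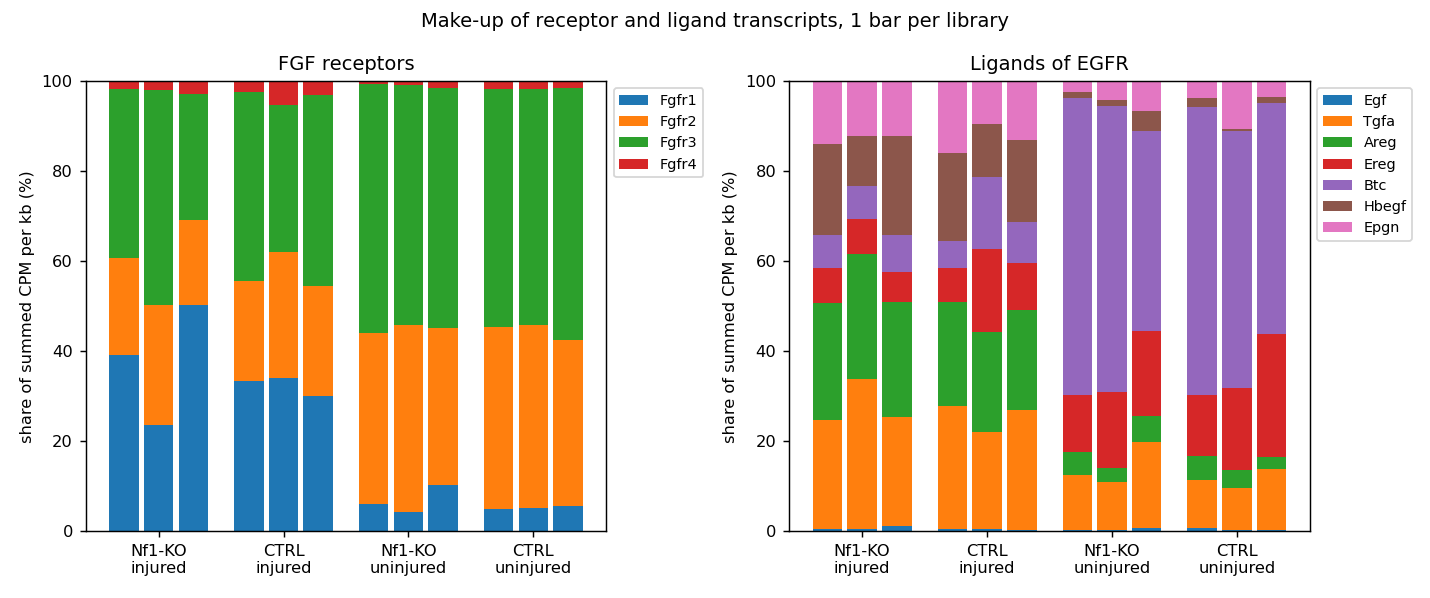
Share (%) of the summed CPM per kb of exon held by each of 4 FGF receptors (left) and each of 7 EGFR ligands (right), with 1 bar per library. Fgfr1 is at 23.6% or more in every injured library and is at most 10.2% in uninjured ones, and Btc is at most 16.1% in injured and at least 44.5% in uninjured libraries.

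Epgn, Ereg, Areg and Btc are neighbours and the 4 protein-coding genes within 376 kb of chromosome 5 (GRCm38). They lie at chr5:91027464-91035215, chr5:91074622-91093646 and chr5:91139599-91148432 on the plus strand and chr5:91357261-91402994 on the minus strand. Within this interval Areg rose, Ereg and Btc fell and Epgn was not called, in both genotypes. The 250 bases before the RefSeq start of a gene were at hand for 3 of the 4, and they are shown because neighbours moved in opposite directions; capitals mark the motifs found, the cyclic AMP response element TGACGTCA and the TATA box TATAAA. The windows, from RefSeq on GRCm38.p6, are chr5:91027267-91027516 (plus strand) for Epgn, chr5:91139349-91139598 (plus strand) for Areg and chr5:91402995-91403244 (minus strand) for Btc, each printed 5′ to 3′ along the gene's own strand.
Epgn: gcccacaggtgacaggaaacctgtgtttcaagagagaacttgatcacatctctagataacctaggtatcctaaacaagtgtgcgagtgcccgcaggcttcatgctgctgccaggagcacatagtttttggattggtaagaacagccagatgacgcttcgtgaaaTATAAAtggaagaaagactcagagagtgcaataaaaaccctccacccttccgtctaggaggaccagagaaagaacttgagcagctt
Areg: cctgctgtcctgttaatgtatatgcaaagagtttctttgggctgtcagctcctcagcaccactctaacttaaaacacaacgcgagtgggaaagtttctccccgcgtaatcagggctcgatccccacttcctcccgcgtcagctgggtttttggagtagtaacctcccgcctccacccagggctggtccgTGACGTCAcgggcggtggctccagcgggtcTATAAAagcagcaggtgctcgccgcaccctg
Btc: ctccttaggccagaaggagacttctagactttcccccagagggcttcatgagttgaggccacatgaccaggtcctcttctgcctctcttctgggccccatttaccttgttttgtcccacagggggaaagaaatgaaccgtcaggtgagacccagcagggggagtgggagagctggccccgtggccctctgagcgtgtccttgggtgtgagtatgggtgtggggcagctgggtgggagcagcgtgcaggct
Both strands were searched for TGACGTCA, TATAAA and the AP-1 motif TGANTCA. Areg, the neighbour that rose, held TGACGTCA at 61 to 54 bases and TATAAA at 31 to 26 bases before its start. Epgn held TATAAA at 86 to 81 bases before its RefSeq start, and Btc held none of the 3 motifs. The GENCODE start of Epgn (91027464) falls inside the printed window (91027267-91027516), so TATAAA lies closer to that start. The positions of TATAAA in Epgn and Areg are therefore not compared. For Areg and Btc the window ends next to the GENCODE gene. Of 32851 RefSeq promoter windows of that length, 1.55% held TGACGTCA, 12.4% TATAAA and 6.75% TGANTCA. The Areg window held 15 CG dinucleotides, against 5 for Epgn, 4 for Btc and a median of 6 over all windows. A match describes the letters only.

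Of the 4 neuregulins, Nrg3 fell in both genotypes and the other three were not called. Nrg1, the ligand that acts on Schwann cells, averaged 7.31 ± 0.831 CPM in Nf1-KO injured, 6.81 ± 2.21 CPM in CTRL injured, 5.44 ± 0.52 CPM in Nf1-KO uninjured and 5.72 ± 1.06 CPM in CTRL uninjured skin (SD, n = 3 each), with log2 fold changes of 0.43 ± 0.30 (SE; edgeR adjusted p = 0.265) in Nf1-KO and 0.24 ± 0.30 (SE; edgeR adjusted p = 0.511) in CTRL skin. Nrg2 (5.42 to 16.6 CPM) and Nrg4 (7.64 to 16.9 CPM) did not pass the test either. Nrg3, a ligand of ERBB4, had 0.192, 0.494 and 1.03 CPM in Nf1-KO injured skin and 0.178, 0.0633 and 0.0668 CPM in CTRL injured skin, against 2.42, 3.91 and 3.52 CPM in Nf1-KO uninjured skin and 4.04, 3.68 and 2.21 CPM in CTRL uninjured skin. All injured libraries were at or under 1.03 CPM and all uninjured ones at or above 2.21 CPM. Nrg3 fell with a log2 fold change of -2.54 ± 0.57 (SE; edgeR adjusted p = 0.00274) in Nf1-KO and -4.96 ± 0.70 (SE; edgeR adjusted p = 6.62e-05) in CTRL skin. The Schwann cell markers moved in both directions in Nf1-KO skin. Of the 7 used, Mbp and Prx fell and Sox10 and Foxd3 rose there, and Mbp, Ngfr and Prx fell in CTRL skin. The median log2 fold change of the 7 markers was 0.27 in Nf1-KO and 0.10 in CTRL skin. Their summed level was 110 to 182 and 64.3 to 74.8 CPM in Nf1-KO and CTRL injured skin, against 154 to 304 and 179 to 204 CPM in Nf1-KO and CTRL uninjured skin, with no marker at 0 throughout a group, and their part in the result was not tested.

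Several of the members that fell stood near background in uninjured skin. Erbb4, Fgf12 and Nrg3, like Fgf15, passed the expression filter through their uninjured libraries, which favours a fall. Relative to the nose receptor genes of the same library, the median level per kb over the 6 uninjured libraries was 1.18 times background for Erbb4, 1.55 for Fgf12, 1.74 for Fgf15, 2.42 for Egf, 3.02 for Nrg3 and 5.77 for Fgf9. The corresponding ratio was 358 for Btc, 251 for Erbb2, 212 for Fgfr3, 150 for Fgfr2, 93.7 for Ereg and 43 for Fgf18. CTRL uninjured libraries 1 and 2 had the highest background (0.279 and 0.228 CPM per kb). A fit without them leaves 1 CTRL uninjured library, assumed to vary like the libraries of the other groups, so the smaller group and the lower background cannot be told apart in the calls lost. In that fit 7 members were called lower in CTRL skin, and Fgf9 (-1.60), Fgf12 (-1.37), Fgf15 (-4.43) and Egf (-0.51) were not called (edgeR adjusted p 0.108 to 0.496). Fgf10 (0.55, edgeR adjusted p = 0.395) and Fgf22 (1.16, 0.0507) missed the threshold as well, Fgf22 with nearly the same log2 fold change as with all libraries. When the log2 share of ribosomal RNA-like counts was added to the fit, a choice made after seeing the data, 3 members were called higher in CTRL skin (Fgfrl1, Fgf5 and Hbegf) and 4 lower (Fgfr2, Erbb4, Btc and Nrg3). In CTRL skin that share was 0.274% to 0.342% in uninjured and 0.617% to 1.52% in injured libraries. The states did not overlap, so the share and injury cannot be told apart in the CTRL calls lost. In Nf1-KO skin the same fit called 6 higher and 7 lower, and no longer called Fgf2 (1.13, edgeR adjusted p = 0.09), Fgf10 (1.18, 0.0524), Fgf22 (0.92, 0.0565) and Fgf18 (-2.50, 0.0519).

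**Figure D5:**
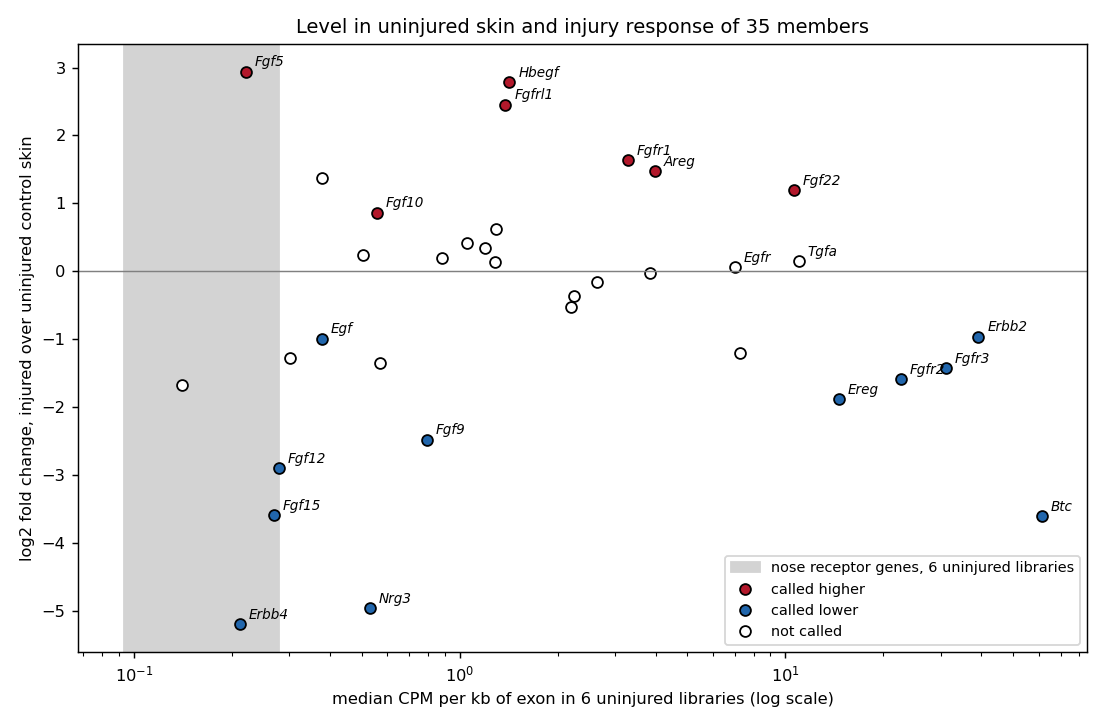
Median CPM per kb of exon in the 6 uninjured libraries (x axis, log scale) against the log2 fold change of injured over uninjured CTRL skin (y axis) for the 35 tested members, with Fgf15 at its bound and Erbb4 at its pooled ratio. The grey band spans the nose receptor background of the uninjured libraries, 0.0934 to 0.279 CPM per kb, and holds Erbb4, Fgf12, Fgf15, Fgf5 and Fgf6, whereas Btc, Erbb2, Fgfr3, Fgfr2 and Ereg lie far to its right.

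Ordered by level per kb of exon, Btc led the members in CTRL uninjured skin at 68 ± 14.7 CPM per kb, followed by Erbb2 (42.9 ± 9.73), Fgfr3 (32 ± 5.07), Ereg (24 ± 10.9), Fgfr2 (23.1 ± 1.58), Tgfa (13.3 ± 3.39) and Fgf22 (10.7 ± 0.279; SD, n = 3). In CTRL injured skin Fgf22 led at 24.4 ± 3.45 CPM per kb, followed by Erbb2 (22 ± 4.14), Tgfa (14.8 ± 5.06), Areg (13.1 ± 3.46), Fgfr3 (11.9 ± 1.75) and Fgfr1 (9.92 ± 1.17). Btc was at 5.56 ± 1.52 CPM per kb there. Neighbours whose levels differed by less than their SDs included Ereg and Fgfr2 in uninjured and Fgf22 and Erbb2 in injured skin.

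Between genotypes no member was called. In injured skin edgeR called 0 of 35 members, beside 0% of all genes, and 4 members (11.4%) had an unadjusted p under 0.05, beside 10.7% of all genes. In uninjured skin it called 0 of 35, beside 0.0296% of all genes (7 genes, 0.0254% higher and 0.00423% lower), with 2 members (5.71%) at an unadjusted p under 0.05, beside 8.34% of all genes. The difference between the injury responses was called for 0 members, beside 0% of all genes, with 1 member (2.86%) at an unadjusted p under 0.05, beside 10.8% of all genes. These shares were near or under those of all genes. DESeq2 also called 0 members in these 3 comparisons. The median log2 fold change of the members was 0.11 in injured and -0.08 in uninjured skin, and the median of all genes was 0.12 in injured and -0.04 in uninjured skin.

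The members with an unadjusted p under 0.05 are given as values only. Ereg averaged 13.7 ± 3.35 CPM in Nf1-KO injured and 26.9 ± 6.39 CPM in CTRL injured skin (log2 fold change -0.97 ± 0.34 SE, edgeR adjusted p = 0.359), and 52.7 ± 16.1 CPM in Nf1-KO uninjured and 99 ± 44.8 CPM in CTRL uninjured skin (log2 fold change -0.91 ± 0.33 SE, edgeR adjusted p = 0.537; SD, n = 3 each). Only the injured groups did not overlap. For Btc the injured means were 15 ± 1.74 CPM in Nf1-KO and 25.1 ± 6.87 CPM in CTRL skin (log2 fold change -0.74 ± 0.32 SE, edgeR adjusted p = 0.433), again without overlap. Fgf18 averaged 1.42 ± 0.466 CPM in Nf1-KO injured and 3.35 ± 2.09 CPM in CTRL injured skin (log2 fold change -1.27 ± 0.58 SE, edgeR adjusted p = 0.459), with overlap. Nrg3 averaged 0.573 ± 0.426 CPM in Nf1-KO injured and 0.103 ± 0.0651 CPM in CTRL injured skin (log2 fold change 2.41 ± 0.77 SE, edgeR adjusted p = 0.355), without overlap, and was the member with an unadjusted p under 0.05 in the difference between the responses (log2 fold change 2.42 ± 0.92 SE, edgeR adjusted p = 0.442). Epgn averaged 5.92 ± 1.87 CPM in Nf1-KO uninjured and 14.2 ± 12.4 CPM in CTRL uninjured skin (log2 fold change -1.26 ± 0.53 SE, edgeR adjusted p = 0.565), where CTRL library 2 stood at 28.5 CPM and the other two at 6.21 and 7.95 CPM.

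In injured skin the summed basal keratinocyte markers given above did not overlap between the genotypes, and neither did those of the differentiating keratinocyte markers. Neither list had a called marker of its 8 (edgeR). The nose receptor background was 0.00242, 0.0192 and 0.0599 CPM per kb in Nf1-KO injured and 0.00266, 0.00327 and 0.00733 CPM per kb in CTRL injured libraries, and the Schwann cell sums did not overlap either. The part of these in the values of Ereg, Btc and Nrg3 was not tested. With no expression filter, edgeR called Ereg (adjusted p = 0.00402) and Btc (0.0395) lower in injured and Ereg (0.0343) and Epgn (0.0301) lower in uninjured Nf1-KO skin. That fit called 410 of 49676 genes in injured and 219 in uninjured skin.

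The receptor tyrosine kinase pathway list of 42 genes around these families (co-receptors, adaptors, feedback inhibitors, sheddases and heparan sulfate enzymes) had 40 tested genes. In Nf1-KO skin 8 rose and 6 fell with injury, or 35%, beside 37.4% of all genes, and in CTRL skin 8 rose and 8 fell, or 40%, beside 55.3% of all genes. The median log2 fold change of the list was 0.12 in Nf1-KO and -0.17 in CTRL skin, and that of all genes -0.09 in Nf1-KO and -0.21 in CTRL skin. The list was thus called no more often than all genes. Dusp6, an ERK phosphatase induced by ERK signalling, averaged 72.9 ± 13.5 CPM in Nf1-KO injured and 23.3 ± 1.46 CPM in Nf1-KO uninjured skin (log2 fold change 1.64 ± 0.23 SE, edgeR adjusted p = 5.72e-05), and 69.7 ± 10.4 CPM in CTRL injured and 33.6 ± 10.6 CPM in CTRL uninjured skin (log2 fold change 1.05 ± 0.23 SE, edgeR adjusted p = 0.00127; SD, n = 3 each). Etv4, a transcription factor of the same output, rose by a log2 fold change of 2.15 ± 0.40 (SE; edgeR adjusted p = 0.000838) in Nf1-KO and 2.85 ± 0.41 (SE; edgeR adjusted p = 0.000111) in CTRL skin. Of the tested inhibitors named Spry or Spred, Spry1 and Spry4 were called in both genotypes, Spry4 higher and Spry1 lower. Spry2, Spred1, Spred2 and Spred3 were called in neither. The log2 fold change of Spry4 was 1.45 ± 0.30 (SE; edgeR adjusted p = 0.00156) in Nf1-KO and 0.82 ± 0.30 (SE; edgeR adjusted p = 0.0269) in CTRL skin, and that of Spry1 -1.40 ± 0.36 (SE; edgeR adjusted p = 0.00818) in Nf1-KO and -1.39 ± 0.36 (SE; edgeR adjusted p = 0.00493) in CTRL skin. These last 2 genes were chosen after their values were seen. Spry4 in CTRL skin missed the threshold without CTRL injured library 2 (0.79, edgeR adjusted p = 0.0592) or CTRL uninjured library 2 (0.81, 0.0744). With the ribosomal RNA-like term added, Spry1 was called in neither genotype (0.06 in CTRL skin, edgeR adjusted p = 0.892, and -0.39 in Nf1-KO skin, 0.234). Spry4 in CTRL skin was not called in that fit either (1.04, edgeR adjusted p = 0.104). Without CTRL uninjured libraries 1 and 2, the CTRL values were -1.21 for Spry1, 0.92 for Spry4 and 0.69 for Dusp6. That fit leaves 1 CTRL uninjured library, so these are effect sizes only and not calls upheld.

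Sulf1 and Sulf2, extracellular enzymes that remove 6-O-sulfate from heparan sulfate, the cofactor of FGF binding, also rose. Sulf2 averaged 103 ± 7.91 CPM in Nf1-KO injured and 24.4 ± 13.9 CPM in Nf1-KO uninjured skin (log2 fold change 2.07 ± 0.33 SE, edgeR adjusted p = 0.000226), and 114 ± 8.81 CPM in CTRL injured and 20.6 ± 7.1 CPM in CTRL uninjured skin (log2 fold change 2.46 ± 0.33 SE, edgeR adjusted p = 6.25e-05). For Sulf1 the log2 fold change was 3.09 ± 0.48 (SE; edgeR adjusted p = 0.00021) in Nf1-KO and 2.05 ± 0.45 (SE; edgeR adjusted p = 0.00186) in CTRL skin. Kl, the co-receptor of FGF23, fell in both genotypes; in CTRL skin pooled counts of 1 in injured and 102 in uninjured libraries gave a 108-fold lower level (95% exact counting interval 19 to 4325; edgeR adjusted p = 0.000371), and in Nf1-KO skin the log2 fold change was -2.64 ± 0.80 (SE; edgeR adjusted p = 0.0168). Kl was low, at 2.79 ± 1.58 CPM in CTRL uninjured and 0.0223 ± 0.0386 CPM in CTRL injured skin (SD). It passed the expression filter through its uninjured libraries, which favours a fall, and its level was not set against the background. The Nf1-KO call of Kl was lost without Nf1-KO uninjured library 2 (-2.50, edgeR adjusted p = 0.0525). It was also lost with the ribosomal RNA-like term added (-2.92, edgeR adjusted p = 0.136), as was the CTRL call of Sulf1 (1.60, edgeR adjusted p = 0.144). Between genotypes edgeR and DESeq2 called 0 of the 40 genes in injured and in uninjured skin, with 3 genes (7.5%) at an unadjusted p under 0.05 in each state, beside 10.7% of all genes in injured and 8.34% in uninjured skin.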

How the data were processed

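The authors deposited 1 table of raw gene counts per library, from RNeasy-extracted skin RNA (10 ng) amplified with Smart-Seq v4 and made into Nextera XT libraries, per the labels' protocols, a kit that does not mark strand. The submitters' processing notes name the aligner STAR 2.5.2b, the counter HTSeq 0.5.3, SAMtools, HOMER and DESeq2, and the build mm10. Settings, annotation and strand option: not given in the sources used here. Of 53379 gene IDs, 53274 matched GENCODE M21, which supplied symbols, lengths and coordinates, and 1 column of no listed sample was not used.

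All 12 libraries entered 1 fit of 4 group means with edgeR 4.0.16 in R 4.3.3 (TMM, filterByExpr with a count minimum of 10, robust quasi-likelihood F test, 2-sided, Benjamini-Hochberg over 23635 genes, called under 0.05). SE is the log2 fold change divided by the square root of F. Shares were compared by exact permutation, and ratios of pooled counts carry 95% exact intervals for counting error only. The fit was tested on simulated counts with a fixed spread and few genes changed, all of them well counted. That setting differs from these data and does not cover the low members. Members called in a comparison and averaging at least 1 CPM are given per library, and up to 4 called pathway genes with the smallest p per injury comparison are named. Members and lists were chosen with earlier results of these data known. A marker of the Schwann cell list is not reported here and was left out of its counts and sums. Alternatives were DESeq2 1.42.0, a replicate block, size factors by median of ratios, the fit without any expression filter or with at least 2 CPM required in 3 libraries, each library left out, CTRL uninjured libraries 1 and 2 left out, and a ribosomal RNA-like covariate. Chi-square per degree of freedom between replicates was 9.55 to 87.8, so no library was counted as a copy of another.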

Additional observations from a re-analysis of the deposited data

How the results depend on the processing

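The injury call counts ranged over 12 fits, each leaving out 1 library, from 8 to 9 higher and 8 to 11 lower in Nf1-KO skin and from 6 to 7 higher and 10 to 13 lower in CTRL skin, and from 0 to 0 in each direction of the 3 other comparisons. Without the CTRL uninjured libraries 1 and 2, 7 members were lower in CTRL skin in place of 11, in a fit where the CTRL uninjured group has 1 library, assumed to vary like the other groups. With the ribosomal RNA-like covariate 3 were higher and 4 lower there, and Fgfr1 missed the threshold at 1.20 (edgeR adjusted p = 0.0518), and in Nf1-KO skin 6 were higher and 7 lower in place of 9 and 8. With no filter, 2 members were lower in Nf1-KO than in CTRL skin in the injured state and 2 in the uninjured state. That setting also moved the calls over all genes to 410 in place of 0 in injured skin, to 219 in place of 7 in uninjured skin and to 236 in place of 0 for the difference. DESeq2 called 124, 60 and 37 genes in those 3 comparisons. Median-of-ratios scaling moved the median of all genes by at most -0.11 and called 9 higher and 11 lower members in Nf1-KO and 7 higher and 12 lower in CTRL skin. DESeq2 called 9 higher and 12 lower members in Nf1-KO and 7 higher and 13 lower in CTRL skin. The cause of these differences was not tested.

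Replicate numbers did not pair the libraries: of 18 same-numbered pairs, 4 correlated above 0.1 (r from -0.424 to 0.38). With the replicate block 9 members were higher and 8 lower in Nf1-KO skin and 7 higher and 10 lower in CTRL skin, where Egf was no longer called (edgeR adjusted p = 0.0516).

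Among single genes, pathway genes included, 25 values changed sign under the settings other than leaving out 1 library, and in 30 others a call was lost with the sign kept. Of the 25, Spry1 in CTRL skin (0.06 with the covariate) was the 1 that the fit as reported had called. For injury in CTRL skin, Egfr stood at -0.00 with median-of-ratios scaling and -0.02 with the 2 CPM filter, Epgn at 0.17 and Nrg2 at 0.03 with no filter, and Epgn at 0.16 with the replicate block. Without the 2 CTRL uninjured libraries of high background the values were -0.29 for Egfr, 0.80 for Epgn, -0.37 for Fgf1, 0.24 for Fgf20, -0.03 for Nrg1, 0.16 for Nrg2 and -0.15 for Tgfa, and Nf1 in Nf1-KO against CTRL uninjured skin was at 0.01. With the covariate, the CTRL values were -0.73 for Fgf1, -0.31 for Fgf11, 0.38 for Fgf13, -0.06 for Nrg1, 0.39 for Nrg2, 0.30 for Nrg4 and -0.76 for Nf1, and the Nf1-KO values -0.44 for Fgf11, 0.18 for Fgf6, 0.32 for Nrg4 and -0.31 for Nf1. Leaving out 1 library gave ranges that crossed 0 in Nf1-KO skin for Fgfr4 (-0.13 to 0.50), Fgf6 (-0.51 to 0.26), Fgf11 (-0.03 to 0.40), Tgfa (-0.03 to 0.40), Nrg2 (-0.33 to 0.42) and Nrg4 (-0.34 to 0.06). In CTRL skin they were Fgfr4 (-0.20 to 0.49), Fgf1 (-0.15 to 0.60), Tgfa (-0.09 to 0.44), Epgn (-0.41 to 0.98), Nrg2 (-0.28 to 0.24) and Nf1 (-0.11 to 0.36), and in Nf1-KO against CTRL injured skin Nf1 (-0.42 to 0.15).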
